A study of Drosophila melanogaster with 12 samples.

Results

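RNA of the whole-head lysate from flies with the glia driver was set against RNA of the head lysates from flies with the neuron driver and with the fat body driver. These lysates are the Input libraries of a ribosome affinity purification study in adult Drosophila melanogaster, where ribosomes with GFP-tagged ribosomal protein L10A were pulled down (IP) from neurons, glia or fat body. Each lysate came from 1000 heads and was sampled before the pull-down, so an Input holds the polyA RNA of all cells of the heads rather than of the driver's cells alone. The Inputs make up 6 of the 12 samples, with 2 replicates for each driver, and each replicate pooled 4 technical replicates. The authors' table gave 1 value per gene for each group, in FPKM (fragments per kilobase of transcript, scaled to the mapped fragments of the library), with both replicates already combined. The table thus allows no standard deviation, no n and no test, and no difference below could be weighed against replicate error. Depth is unknown too, since the table holds no counts.

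The glia Input came from repo-Gal4/+;UAS-GFP-L10A/+ heads, the neuron Input from Elav-Gal4/+;UAS-GFP-L10A/+ heads and the fat body Input from UAS-GFP-L10A/+;takeout-Gal4/+ heads. All flies had the 2202U background, 1 copy of a Gal4 driver and 1 copy of the tagged transgene, so no group here lacked a driver. Age was given only as adult, and sex was not given. The driver, the flies collected and the lysate differ together between the Inputs and cannot be told apart. In such bulk RNA, fewer cells of a type and less RNA per cell cannot be told apart either.

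Genes were kept where at least 1 Input reached 1 FPKM, which left 10760 of the 15104 genes. For each, the difference was log2(FPKM + 1) in the glia Input minus the mean of the same value in the neuron and fat body Inputs. The added 1 makes this difference smaller than the true log2 ratio for genes of low level. At the edge of the minimum, CG7730 had 1.00 FPKM in the glia Input, 0.480 in the neuron Input and 0.533 in the fat body Input and was kept, whereas CG42467, with 0.999, 0.363 and 0.387 FPKM in the glia, neuron and fat body Inputs, was not.

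A head lysate holds brain, eye, fat body, muscle, hemocytes and cuticle-forming cells. The testis, which makes sperm, the accessory glands, which secrete seminal proteins such as sex peptide, and the ejaculatory duct lie in the abdomen, as does the midgut with its digestive proteases, and the indirect flight muscles lie in the thorax. Gene lists for these tissues were therefore read beside lists for the cells of the head. All lists were written with earlier results of these data known, so their counts describe the lysates and are not independent evidence.

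The glia Input stood apart from the others mainly in 1 direction. It was at least 2-fold higher for 1052 genes (9.78% of those tested) and at least 2-fold lower for 47 (0.437%), so that 95.7% of the 1099 genes past 2-fold were higher. With a pseudocount of 5 the higher genes numbered 227 and with a minimum of 5 FPKM 520. At least 2-fold above both other Inputs were 875 genes (8.13%), and at least 2-fold below both were 11 (0.102%). The same measure with the neuron Input in front gave 78 genes higher (0.725%) and 358 lower (3.33%), and with the fat body Input in front 32 higher (0.297%) and 59 lower (0.548%). These 3 comparisons share their columns, so the counts stand side by side only. The median gene differed by -0.17 on the log2 scale, with a middle range (25th to 75th percentile) of -0.29 to -0.00, whereas the 95th percentile lay at 1.37 and the 5th at -0.51. Rescaling the Inputs to equal medians of well expressed genes moved the median difference of those genes by 0.20 and rescaling to equal totals by 0.14, so differences near 0 are read relative to the median gene.

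**Figure D1:**
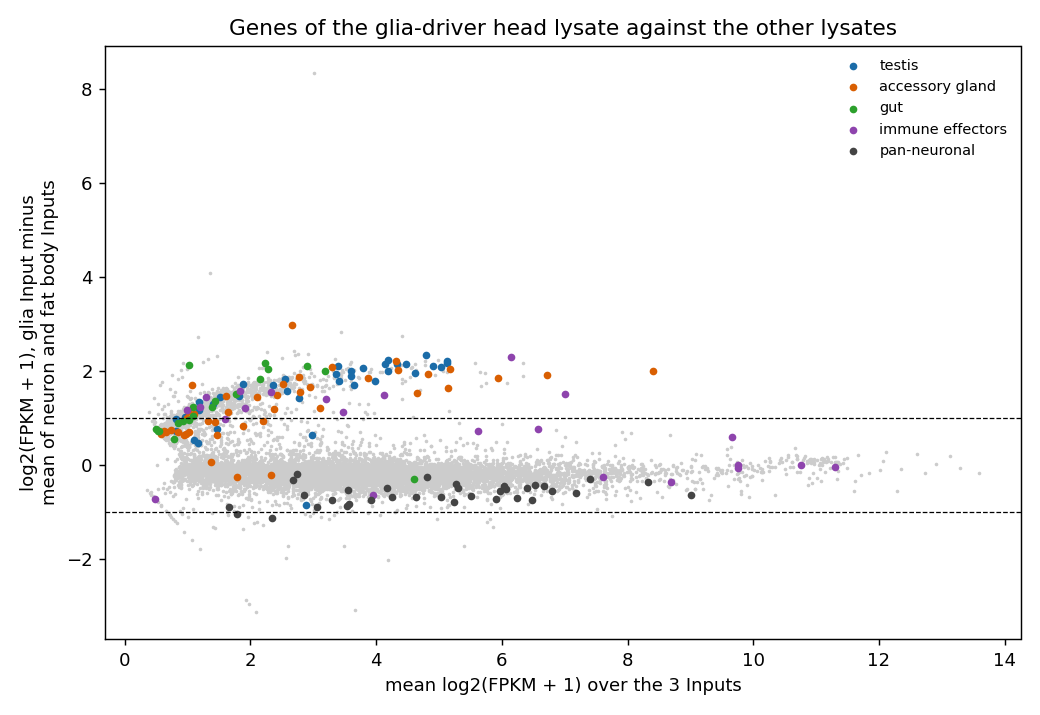
Difference of each of the 10760 genes (log2(FPKM + 1), glia Input minus mean of neuron and fat body Inputs, vertical axis) against its mean level over the 3 Inputs (horizontal axis), with 5 gene lists coloured and dashed lines at 2-fold. Most genes form a flat band just below 0, and a separate upper band with the testis, accessory gland and gut genes runs between about 1 and 2.

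Most of the 1052 higher genes were of low level. Their median was 4.96 FPKM in the glia Input, against 1.03 FPKM in the neuron Input and 1.45 FPKM in the fat body Input, while the median tested gene had 8.81, 10.3 and 9.04 FPKM in the glia, neuron and fat body Inputs. In the glia Input 815 of them stayed under 10 FPKM, 237 reached 10 FPKM and 14 reached 100 FPKM. Together they held 2.25% of the summed FPKM of the glia Input, against 0.449% in the neuron Input and 0.602% in the fat body Input. The middle range of their differences was 1.16 to 1.63, and 70 genes reached 2.

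Genes of the testis gave a uniform picture. Of 43 listed genes, 37 were tested and 30 were at least 2-fold higher in the glia Input, with none lower, against 9.78% higher over all genes. Their median difference was 1.79, beside -0.17 for all genes, and the glia Input was the highest for 36 of 37. Their summed level was 1079 FPKM in the glia Input, 247 in the neuron Input and 286 in the fat body Input. Some of these genes belong to families (Mst84D, S-Lap) whose likeness in sequence was not checked. Reads shared among copies could have been split by the authors' counting, so values of single members are uncertain.

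The highest testis genes encode parts of the sperm tail and of its mitochondrial derivative. Mst84Dc had 96.0 FPKM in the glia Input, 18.1 in the neuron Input and 22.0 in the fat body Input. Mst87F (FBgn0002862, arm 3R), also a small cysteine-rich sperm tail protein gene, had 94.8, 18.3 and 22.3 FPKM in the glia, neuron and fat body Inputs. Both lay far above in the glia Input, with differences of 2.21 and 2.18, while the other Inputs were close to each other. S-Lap1 (FBgn0035915, arm 3L), a sperm leucylaminopeptidase gene, had 78.3 FPKM in the glia Input, 15.3 in the neuron Input and 20.1 in the fat body Input. Another leucylaminopeptidase gene found in sperm, loopin-1, had 53.1, 9.54 and 13.4 FPKM in the glia, neuron and fat body Inputs. All 7 S-Lap genes were past 2-fold, with a median difference of 2.00. This family was put on a list of its own after values had been seen.

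Genes of other steps of sperm formation had the same order of levels. betaTub85D, the beta-tubulin of the male germ line, had 23.3 FPKM in the glia Input, 5.27 in the neuron Input and 6.84 in the fat body Input (difference 1.79). The protamine-like genes Mst35Ba and Mst35Bb, whose products pack sperm DNA, differed by 1.70 and 1.82, and Mst77F, with a like role in the sperm nucleus, by 1.79. don juan (dj), another protein gene of late sperm, had 26.5, 6.35 and 8.65 FPKM in the glia, neuron and fat body Inputs. fzo, the mitofusin that acts in spermatids, had only 2.11 FPKM in the glia Input, 0.399 in the neuron Input and 0.675 in the fat body Input (difference 1.02). The exception was Tektin-C (FBgn0035638), with 3.96 FPKM in the glia Input, 34.0 in the neuron Input and 1.31 in the fat body Input. It was the lowest testis-list gene by this measure, at -0.86.

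Ratios of FPKM between the Inputs, without the added 1, were alike over the testis genes. Over the 26 with a mean of at least 3 FPKM, the glia Input over the neuron Input had a median of 4.99 and a middle range of 4.52 to 5.46. Against the fat body Input the median was 3.81 with a middle range of 3.44 to 3.98. The fat body Input over the neuron Input had a median of 1.34 with a middle range of 1.30 to 1.40, beside 0.874 over the 8344 genes of the same minimum. Apart from Tektin-C, the testis genes were therefore mostly lowest in the neuron Input and somewhat higher in the fat body Input as well as highest in the glia Input.

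That order held across most of the set. The fat body Input exceeded the neuron Input in 978 of the 1052 higher genes (93.0%), in 2155 of the other 9708 (22.2%) and in 3133 of all tested genes (29.1%). The same neuron and fat body columns enter the difference itself, so this share is a description of the levels.

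**Figure D2:**
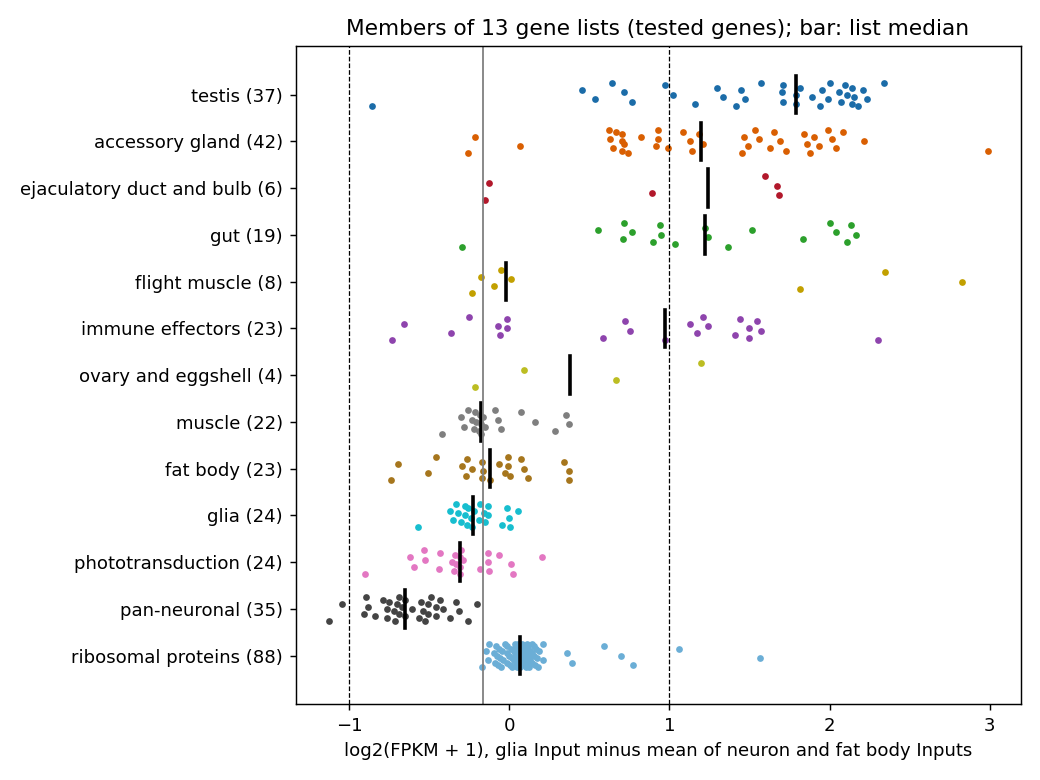
Differences of the tested members of 13 gene lists (log2(FPKM + 1), glia Input minus mean of neuron and fat body Inputs), 1 point per gene, with the list median as a bar, the median of all genes as a grey line and 2-fold as dashed lines. The testis, accessory gland, ejaculatory duct and gut lists have medians above 1, the pan-neuronal list has a median of -0.65, and the muscle, fat body and glia lists lie around the median gene.

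The accessory gland list held the most abundant of the higher genes with a known product. Of 50 listed seminal protein genes, 42 were tested and 25 were at least 2-fold higher in the glia Input, against 9.78% of all genes, with none lower and a median difference of 1.20. The glia Input was the highest for 40 of the 42, and their summed level was 1871 FPKM in the glia Input, 503 in the neuron Input and 483 in the fat body Input. Mst57Db (FBgn0011669, arm 3R), a seminal fluid peptide gene, had 848 FPKM in the glia Input, 218 in the neuron Input and 208 in the fat body Input (difference 1.99). It alone made up a large part of the summed level. Acp70A (FBgn0003034, arm 3L), which encodes sex peptide, the seminal peptide that changes female behaviour after mating, had 50.9, 11.4 and 12.3 FPKM in the glia, neuron and fat body Inputs (difference 2.01).

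Further seminal genes differed in which of the other Inputs was lower. Acp95EF had 252 FPKM in the glia Input, 60.3 in the neuron Input and 73.7 in the fat body Input. Sfp96F had 91.5 FPKM in the glia Input, 29.9 in the neuron Input and 15.4 in the fat body Input, so here the fat body Input was the lowest. Sfp33A4 (FBgn0261056) had 24.2, 2.20 and 2.16 FPKM in the glia, neuron and fat body Inputs, and its difference of 2.99 was the largest on the list. Of the listed genes lowest in the glia Input both were lectins. lectin-46Ca had 2.07 FPKM there, 2.84 in the neuron Input and 2.51 in the fat body Input, and lectin-46Cb differed by -0.21. Over the 22 accessory gland genes with a mean of at least 3 FPKM, the ratio of the fat body Input to the neuron Input had a median of 1.05 and a middle range of 0.867 to 1.25, wider and nearer to 1 than that of the testis genes.

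Genes of the ejaculatory duct and bulb were split. Of 8 listed, 6 were tested and 3 were at least 2-fold higher, against 9.78% of all genes. PebII (FBgn0011694), a protein gene of the ejaculatory bulb, had 109 FPKM in the glia Input, 34.3 in the neuron Input and 33.1 in the fat body Input, and Anp, which encodes the antibacterial peptide andropin, had 53.4, 15.7 and 18.4 FPKM in the glia, neuron and fat body Inputs. Peb differed by 1.69. PebIII, of the same bulb protein family by name, had 1591 FPKM in the glia Input, 1713 in the neuron Input and 1826 in the fat body Input and was thus abundant in all head lysates without being higher in the glia Input. Est-6, a carboxylesterase gene, likewise differed by only -0.13. The peptide gene Dup99B lay just under 2-fold, at 59.1 FPKM in the glia Input, 32.9 in the neuron Input and 30.1 in the fat body Input.

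**Figure D3:**
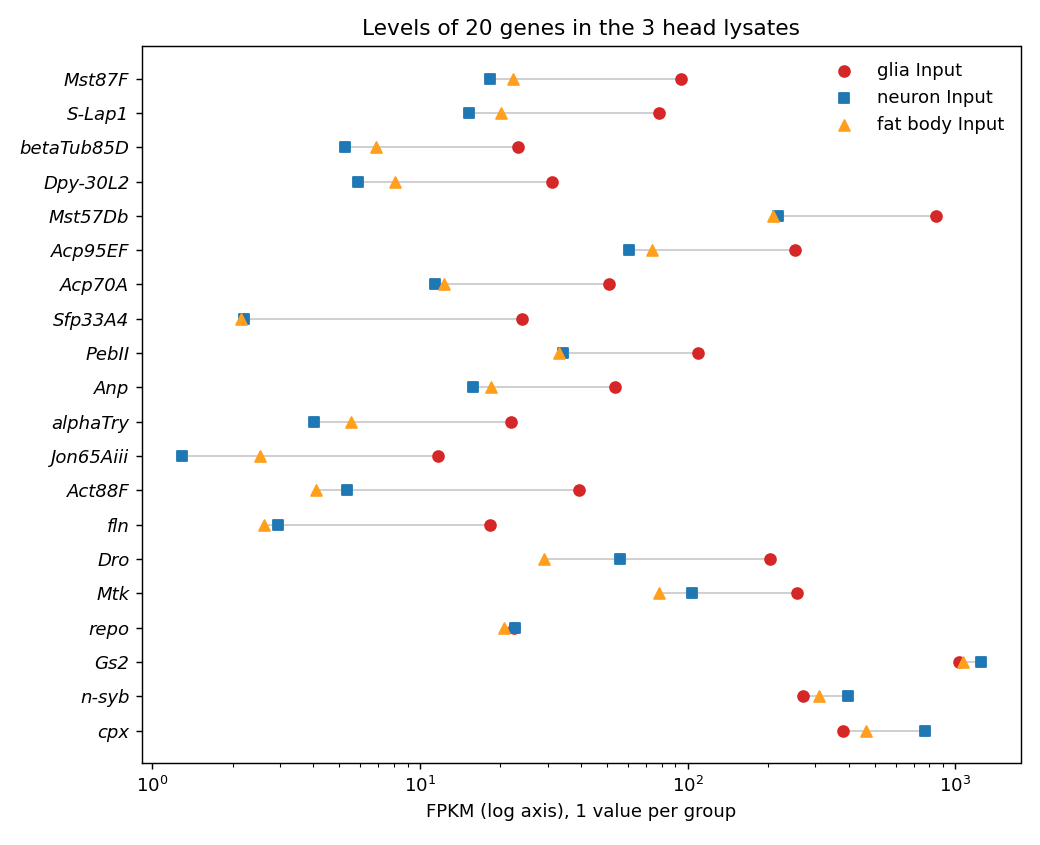
FPKM (log axis) of 20 genes in the glia, neuron and fat body Inputs, 1 value per group joined by a line. For the first 16 genes, of testis, seminal fluid, duct, gut, flight muscle and immunity, the glia Input is the rightmost point, for repo the 3 points nearly coincide, and for Gs2, n-syb and cpx the neuron Input is the rightmost.

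Digestive genes of the midgut were higher at low levels. Of 43 listed genes 19 were tested and 11 were at least 2-fold higher in the glia Input, against 9.78% of all genes, none was lower, and the median difference was 1.22. Their summed level was 135 FPKM in the glia Input, 47.0 in the neuron Input and 52.5 in the fat body Input. alphaTry (FBgn0003863), a trypsin gene, had 21.9 FPKM in the glia Input, 4.01 in the neuron Input and 5.51 in the fat body Input. Jon65Aiii (FBgn0035665), a chymotrypsin-like protease gene, had 11.7, 1.29 and 2.52 FPKM in the glia, neuron and fat body Inputs. Ser7, a serine protease gene, was the only tested gene of the list with a negative difference, at 20.2 FPKM in the glia Input, 27.5 in the neuron Input and 22.9 in the fat body Input.

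Of 8 flight muscle genes 3 were at least 2-fold higher in the glia Input, against 9.78% of all genes. Act88F (FBgn0000047), the actin of the indirect flight muscle, had 39.3 FPKM in the glia Input, 5.35 in the neuron Input and 4.09 in the fat body Input, a difference of 2.83. Flightin (fln), a thick filament protein of the same muscle, had 18.3, 2.96 and 2.62 FPKM in the glia, neuron and fat body Inputs, and the troponin C gene TpnC4 had 3.19, 0.151 and 0.233 FPKM in the glia, neuron and fat body Inputs. The other 5 genes of the list differed by -0.23 to 0.01. General muscle genes were near the median gene, with 0 of 22 past 2-fold in either direction and a median of -0.18. The myosin heavy chain gene Mhc had 262 FPKM in the glia Input, 280 in the neuron Input and 270 in the fat body Input.

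The ovary and eggshell list was mostly below the minimum, with 4 of 24 genes tested. Only orb, an RNA-binding protein of the germ line, was past 2-fold, with 6.85 FPKM in the glia Input, 2.26 in the neuron Input and 2.60 in the fat body Input. grk, the gurken signal of the oocyte, differed by -0.21. Genes with female-biased expression were not at least 2-fold lower in the glia Input. Yp1, a yolk protein gene, had 9755 FPKM in the glia Input, 8750 in the neuron Input and 8361 in the fat body Input, and fit, a female-biased gene of the head fat body, had 954, 802 and 679 FPKM in the glia, neuron and fat body Inputs. roX1, a male-specific RNA of dosage compensation, had 11.9 FPKM in the glia Input, 24.6 in the neuron Input and 23.6 in the fat body Input, and roX2 had 4.89, 10.9 and 7.91 FPKM in the glia, neuron and fat body Inputs. None of these was past 2-fold by the difference used, with roX1 nearest at -0.96.

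Together the 5 lists for testis, accessory gland, ejaculatory duct, gut and flight muscle held 72 of the 1052 higher genes, and 980 were on none of them. The part of RNA from outside the head in these 980 genes was not tested. Genes known only by a CG or CR number made up 831 of the 1052 (79.0%), against 5852 of all tested genes (54.4%). The highest of all was CR40469, a long noncoding RNA gene of the X chromosome, with 383 FPKM in the glia Input, 0.268 in the neuron Input and 0.0955 in the fat body Input (difference 8.35). In the IPs it had 56.4 FPKM with the glia driver, against 0.0414 FPKM in the neuron IP and 0.0548 FPKM in the fat body IP. Among the rest, CG42481 had 217 FPKM in the glia Input, 41.6 in the neuron Input and 55.0 in the fat body Input.

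Some of the higher genes with a name are relatives of broadly used genes. For 28 such genes out of the 221 higher genes with a name, chosen after values had been seen, the difference was 1.02 to 2.27 with a median of 1.61. Their 24 general relatives differed by -0.60 to 0.11 with a median of -0.20. Of these relatives 0 were past 2-fold, beside 9.78% of all genes higher and 0.437% lower. The members were picked among higher genes, and the pairs were chosen with the relatives' values known as well. The values of both are therefore descriptions only, and those of the relatives lie around the median gene.

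The pairs covered translation, chaperones, energy metabolism and the cytoskeleton. RpL10Aa, a relative of the tagged protein's gene, had 7.10 FPKM in the glia Input, 1.57 in the neuron Input and 1.92 in the fat body Input, whereas RpL10Ab (FBgn0036213) had 2353, 2083 and 2273 FPKM in the glia, neuron and fat body Inputs. Hsc70-2, a heat shock cognate gene, had 15.2 FPKM in the glia Input, 2.04 in the neuron Input and 2.75 in the fat body Input, and its abundant relative Hsc70-4 had 665, 869 and 651 FPKM in the glia, neuron and fat body Inputs. Both abundant genes stayed under 2-fold, at 0.11 for RpL10Ab and -0.18 for Hsc70-4. Cyt-c-d, the cytochrome c that acts in spermatids, had 12.4 FPKM in the glia Input, 2.99 in the neuron Input and 4.08 in the fat body Input, beside 1067, 1327 and 948 FPKM for Cyt-c-p in the glia, neuron and fat body Inputs. Pglym87, a phosphoglycerate mutase gene, had 8.81, 1.79 and 2.44 FPKM in the glia, neuron and fat body Inputs, beside 464, 539 and 479 FPKM for Pglym78 in the same 3 Inputs.

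**Figure D4:**
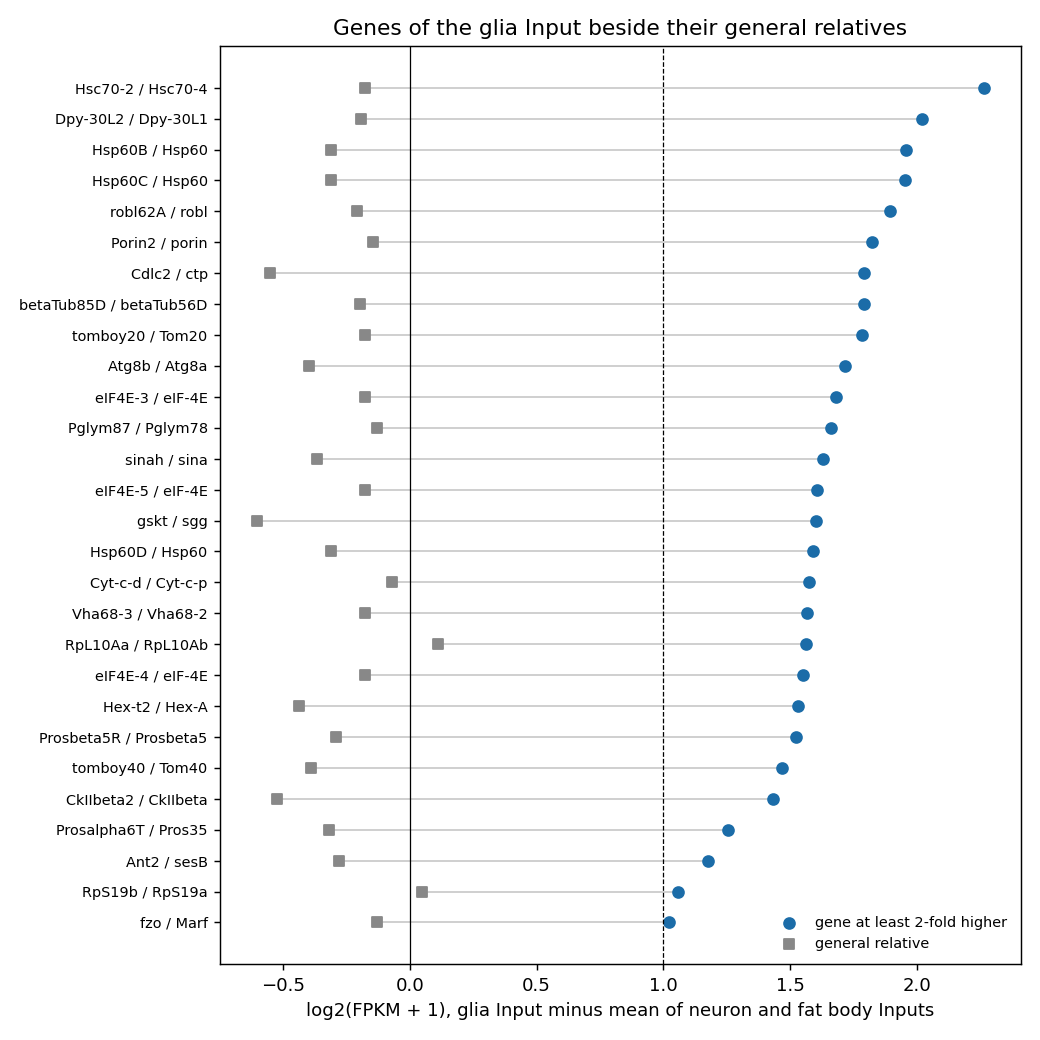
Differences (log2(FPKM + 1), glia Input minus mean of neuron and fat body Inputs) of 28 genes past 2-fold (circles) and of a general relative of each (squares), a relative being shown again for each gene it is paired with. The circles lie between 1.02 and 2.27 and the squares between -0.60 and 0.11.

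Larger sets of such relatives were also listed after values had been seen, so their counts are descriptions, beside 9.78% higher over all genes. Of 25 genes listed as second copies of respiratory chain subunits, 23 were tested and 16 were past 2-fold, with a median of 1.22. Of the 61 tested general subunit genes 0 were past it in either direction, and their median was -0.14. CG18624 (ND-MNLL) and CG34172 (COX7AL2), on the first of these lists, had levels and differences like those of general subunits. They had 365 and 206 FPKM in the glia Input, 425 and 271 in the neuron Input and 369 and 222 in the fat body Input. Whether each gene on that list is a second copy was not checked. Of 8 tested genes of mitochondrial import with a second copy (the tomboy and Tim17 groups and ttm2 and ttm3), 7 were higher, among them tomboy20 with 11.5 FPKM in the glia Input, 2.46 in the neuron Input and 2.81 in the fat body Input. Of 10 tested second-copy proteasome genes 4 were higher. Of 9 tested tubulin tyrosine ligase-like genes, whose enzymes modify tubulin tails, 5 were higher.

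Immune effector genes differed among themselves. Of 26 listed, 23 were tested, 11 were at least 2-fold higher in the glia Input, against 9.78% of all genes, none was lower and the median difference was 0.97. Drosocin (Dro, FBgn0010388), an antibacterial peptide gene, had 203 FPKM in the glia Input, 56.0 in the neuron Input and 29.2 in the fat body Input, a difference of 2.30. Metchnikowin (Mtk, FBgn0014865), a gene for an antifungal and antibacterial peptide, had 256, 103 and 78.3 FPKM in the glia, neuron and fat body Inputs. Diptericin (Dpt) had 33.9 FPKM in the glia Input, 16.8 in the neuron Input and 7.61 in the fat body Input. In contrast to the testis genes, these 3 had their lowest level in the fat body Input.

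Some other immune-induced peptide genes were not at least 2-fold higher in the glia Input. IM2, IM3, IM14 and IM4 differed by -0.07 to -0.01, and the summed level of the whole list was 8233 FPKM in the glia Input, 8118 in the neuron Input and 7329 in the fat body Input. Drosomycin (Drs), the antifungal peptide gene, had 134 FPKM in the glia Input, 72.1 in the neuron Input and 86.9 in the fat body Input and stayed under 2-fold. Defensin (Def) had 10.5, 13.1 and 22.2 FPKM in the glia, neuron and fat body Inputs. The Cec and Att families hold similar copies, so their members' values are uncertain in the way given above. Among stress genes, 1 of 4 tested Turandot genes was at least 2-fold higher, against 9.78% of all genes. It was TotM, with 25.1 FPKM in the glia Input, 9.66 in the neuron Input and 12.9 in the fat body Input. Of 4 tested metallothionein genes, whose products bind metal ions, 1 was at least 2-fold higher and 3 were highest in the glia Input. Their median difference was 0.70. The exception was MtnA, with 2401, 2974 and 4257 FPKM in the glia, neuron and fat body Inputs.

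The defining genes of glia were not higher in the glia-driver lysate. repo (FBgn0011701), the homeodomain gene of glia whose promoter drives Gal4 here, had 22.4 FPKM in the glia Input, 22.7 in the neuron Input and 20.6 in the fat body Input. Gs2, the glutamine synthetase of glia, had 1033, 1242 and 1065 FPKM in the glia, neuron and fat body Inputs. Of 24 tested glial genes none was past 2-fold in either direction, and the median difference was -0.23, beside -0.17 for all genes. In the glia Input 20 of the 24 were lowest. So were 59 of 73 mitochondrial ribosomal protein genes, but only 12 of 88 cytosolic ones. The share over all genes was not counted, so the 20 are not read as a trait of glial genes. The fat body driver's gene to had 9.32 FPKM in the glia Input, 10.4 in the neuron Input and 12.5 in the fat body Input.

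Genes of neurons were lower in the glia Input, mostly by less than 2-fold. Of 35 tested pan-neuronal genes 2 were at least 2-fold lower, against 0.437% of all genes, none was higher, and all 35 were lowest in the glia Input. The share of all genes lowest in the glia Input was not counted, so the 35 are a description only. The median difference of the pan-neuronal genes was -0.65, made up of -0.95 against the neuron Input and -0.32 against the fat body Input. Over all genes these medians were -0.17, -0.24 and -0.09. cpx (FBgn0041605), the complexin of synaptic vesicle release, had 382 FPKM in the glia Input, 773 in the neuron Input and 465 in the fat body Input. The RNA-binding protein gene elav (FBgn0260400) had 5.97 FPKM in the glia Input, 15.0 in the neuron Input and 7.55 in the fat body Input. The genes past 2-fold were Syx1A, a syntaxin of vesicle fusion, with 2.03, 8.68 and 3.54 FPKM in the glia, neuron and fat body Inputs, and the calcium sensor gene Frq1 with 1.13, 5.29 and 2.06 FPKM in the glia, neuron and fat body Inputs. The order with the neuron Input highest was thus shared by the abundant and the rare genes.

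The lists for photoreceptors, fat body, hemocytes, septate junctions and neuropeptides gave no gene past 2-fold. The 24 phototransduction genes had a median of -0.31, and ninaE, the main rhodopsin gene, had 7795 FPKM in the glia Input, 5887 in the neuron Input and 10027 in the fat body Input, so eye RNA was present in all lysates. The 23 tested fat body genes had a median of -0.12, the 11 tested hemocyte genes -0.02, the 19 septate junction genes -0.27 and the 28 tested neuropeptide genes -0.23. The 73 mitochondrial ribosomal protein genes had a median of -0.22 and the 88 cytosolic ones 0.07, with RpL10Aa and RpS19b the only 2 of the cytosolic ones past 2-fold.

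Few genes of detoxification, odorant binding and cuticle were past 2-fold. Higher in the glia Input were 2 of 67 tested P450 genes, 2 of 33 odorant-binding protein genes and 3 of 44 cuticle genes, against 9.78% of all genes, and 0 of 17 glutathione transferase genes and 0 of 7 UDP-glycosyltransferase genes on the list. Lower were 3 P450 genes and 1 odorant-binding protein gene, against 0.437% of all genes. Cyp4g1, a cytochrome P450 gene of hydrocarbon synthesis, had 39.5 FPKM in the glia Input, 14.4 in the neuron Input and 14.5 in the fat body Input. Cyp6a2, a P450 gene linked to insecticide resistance, had 1.72, 7.62 and 8.40 FPKM in the glia, neuron and fat body Inputs. These 2 differed in opposite directions, at 1.39 and -1.73, while the tested P450 genes had a median of -0.20. Cpr49Ab, a cuticle protein gene, had 6.02 FPKM in the glia Input, 1.51 in the neuron Input and 2.19 in the fat body Input, and the odorant-binding protein gene Obp56h had 3.52, 6.93 and 9.96 FPKM in the glia, neuron and fat body Inputs. The mucin-related gene Mur18B had 21.4 FPKM in the glia Input, 3.02 in the neuron Input and 3.79 in the fat body Input.

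Only 47 genes were at least 2-fold lower in the glia Input, 33 of them at least 2-fold below the neuron Input and 25 at least 2-fold below the fat body Input. Of these 47, 15 were small nucleolar RNA genes, which guide the modification of ribosomal RNA, and 12 genes were listed at 0 in the glia Input. Small nucleolar RNAs are short and for the most part not polyadenylated, and 86 of the 249 in the table were tested, with a median difference of -0.37, 5 higher (against 9.78% of all genes) and 15 lower (against 0.437%). snoRNA:Psi28S-3385b was listed at 0 in the glia Input, with 9.97 FPKM in the neuron Input and 6.13 in the fat body Input. snoRNA:MeU5-U42 went the other way, with 16.1 FPKM in the glia Input and a listing at 0 in the neuron and fat body Inputs.

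The lower protein-coding genes on the lists were 3 cytochrome P450 genes, 2 pan-neuronal genes and 1 odorant-binding protein gene. tal-AA, a gene of small peptides in insect development, had 4.08 FPKM in the glia Input, 23.7 in the neuron Input and 10.5 in the fat body Input. Acf1, a chromatin remodelling subunit gene, had 1.35, 5.13 and 4.04 FPKM in the glia, neuron and fat body Inputs. These and Cyp6a2 were the protein-coding genes at least 2-fold below both other Inputs that had a name other than a CG number and at least 5 FPKM in an Input. Bin1 was lower against the fat body Input alone, with 32.0 FPKM in the glia Input, 22.2 in the neuron Input and 234 in the fat body Input. CG5999 was at least 2-fold below both, with 2.04 FPKM in the glia Input, 7.50 in the neuron Input and 78.9 in the fat body Input. It is currently named Ugt37A3, a UDP-glycosyltransferase gene that was not on the list above. CG18107, currently named BomS4, of the immune-induced bomanin peptides, had 129 FPKM in the glia Input, 393 in the neuron Input and 194 in the fat body Input, and its difference was -1.09.

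Position and length of the genes were read from a later annotation (BDGP6), matched by FlyBase identifier for 10164 of the 10760 genes (94.5%). Because the table was made on BDGP5, no coordinates are given. The share of genes at least 2-fold higher was 13.2% on arm 2L (249 of 1887), 10.2% on 2R, 10.3% on 3L and 9.76% on 3R. It was 6.70% on the X (109 of 1628), and none of the 77 genes of chromosome 4 was higher. The tested and matched genes were then put in order of position, which skips all genes in between that were not tested or not matched. Higher genes often lay next to each other in this order. Of the 1019 matched ones, 455 (44.7%) had a higher gene as a neighbour, against 1342 of the other genes (14.7%).

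The same order of tested genes held 32 runs of at least 4 higher genes in a row. A run of 7 on 3R held Mst84Da, Mst84Db, Mst84Dc and Mst84Dd with wa-cup, CG17944 and CG42650, with differences of 1.10 to 2.34. On 3L a run of 6 held sex peptide (Acp70A) with Sfp70A4, CG32119, CG42481, CG43147 and CG14113, at 1.27 to 2.16. On 3R, Mst57Da, Mst57Db, Mst57Dc and Sfp96F made up a run at 1.88 to 2.04. On 2R, Sfp60F, PebII, Peb and CG30429 formed a run of 4. These 4 runs held genes of a family and of the tissue lists, while others, such as CG9722, CG31533, CG31327 and CG3199 on 3R, held numbered genes alone.

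Higher genes were short. Their median exon length was 1033 bases, against 1867 bases for all tested genes, and 1002 bases for the lower genes. In 5 equal groups by exon length, the share of higher genes was 23.5% in the shortest (71 to 980 bases), then 13.7%, 8.46% and 3.59%, and 0.787% in the longest. The median difference of all genes also moved along these groups, at -0.03, -0.11, -0.14, -0.18 and -0.28. The part of exon length in the higher genes was not tested. By level in the glia Input, the share was 13.4% at 1 to 3 FPKM and 15.3% at 3 to 10 FPKM, 5.43% at 10 to 30 FPKM and 2.14% over 100 FPKM.

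The IP libraries came from the same lysates but were sequenced as libraries of their own, so they show how the genes set apart in the glia Input appeared among ribosome-bound RNA. In the glia IP, 258 of the 1052 genes (24.5%) were at least 2-fold above the mean of the neuron and fat body IPs, against 1220 of all tested genes (11.3%), and 12 (1.14%) were at least 2-fold below it, against 1629 (15.1%). The glia IP was the highest IP for 983 of them (93.4%), against 3054 of all genes (28.4%). By the q-values of the authors' deposited table, 534 of the 1052 (50.8%) were above the neuron IP at q under 0.05, beside 14.8% of all genes. The same authors' deposited table placed 117 (11.1%) above the fat body IP, beside 12.8%, and 98 (9.32%) above both, beside 7.14%.

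Relative to their own lysate, most of these genes were low in the glia IP. The glia IP was at least 2-fold below the glia Input for 695 of the 1052 (66.1%), against 2219 of all genes (20.6%), and at least 2-fold above it for 48 (4.56%), against 1988 (18.5%). The median of IP minus Input on the log2 scale was -1.14 in glia-driver flies, -0.57 in neuron-driver flies and -0.35 in fat-body-driver flies, beside 0.03, -0.01 and 0.10 over all genes. The glia Input column enters both the choice of these genes and the glia value of IP minus Input, so the glia value is a description only.

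The tissue lists parted in the IP. All 30 higher testis genes were lower in the glia IP than in the glia Input, 28 of them by at least 2-fold. Their median IP minus Input on the log2 scale was -1.56 with the glia driver, -1.41 with the neuron driver and -0.64 with the fat body driver, so they were below their lysate level in all IPs. Mst87F had 31.9 FPKM in the glia IP, 6.29 FPKM in the neuron IP and 15.5 FPKM in the fat body IP, and S-Lap1 had 24.3, 3.93 and 11.3 FPKM in the glia, neuron and fat body IPs, so the glia IP was still the highest of the IPs. The 25 higher accessory gland genes were near their lysate level in the glia IP, with a median of -0.18 on the log2 scale. Their median was lower in the neuron IP (-1.42) and, by less than 2-fold below the lysate, in the fat body IP (-0.80).

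Some seminal and duct genes were far above the lysate in the glia IP. All 3 higher duct genes were, with a median of 2.61 on the log2 scale for the glia IP, -1.91 for the neuron IP and -0.97 for the fat body IP. The 3 tested duct genes that were not past 2-fold in the Inputs were above it too, so that all 6 were at least 2-fold above their Input in the glia IP, with a median of 2.91. PebII had 672 FPKM in the glia IP, 8.39 FPKM in the neuron IP and 16.3 FPKM in the fat body IP, and Anp had 567, 2.79 and 7.56 FPKM in the glia, neuron and fat body IPs. Of the 25 higher accessory gland genes 5 were at least 2-fold above. Acp54A1 among them had 459 FPKM in the glia IP, 2.44 FPKM in the neuron IP and 6.27 FPKM in the fat body IP. Over all 42 tested accessory gland genes 10 were at least 2-fold above, beside 1988 of all tested genes (18.5%). Both accessory gland counts are near that share, so they are not read as a trait of seminal genes. Mst57Db, the most abundant accessory gland gene, was not at least 2-fold above, with 680 FPKM in the glia IP beside 848 FPKM in the glia Input. It had 41.8 FPKM in the neuron IP and 119 FPKM in the fat body IP. In the authors' deposited table, all 3 higher duct genes had a q under 0.05 for the glia IP above the neuron IP and above the fat body IP.

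Gut genes took another course, in which the glia IP was mostly not the highest. The 11 higher gut genes had a median IP minus Input of 0.17 on the log2 scale for the glia IP, 1.58 for the neuron IP and 2.40 for the fat body IP. The glia IP was the highest IP for 1 of these 11, beside 28.4% of all tested genes and 93.4% of the 1052 higher genes. alphaTry had 24.8 FPKM in the glia IP, 18.2 FPKM in the neuron IP and 44.1 FPKM in the fat body IP. Immune genes were highest in the glia IP for 5 of 11, and Mtk had 106 FPKM in the glia IP, 58.7 FPKM in the neuron IP and 839 FPKM in the fat body IP. For the flight muscle genes the glia IP was the highest in 3 of 3, and Act88F had 44.0 FPKM in the glia IP, 3.77 FPKM in the neuron IP and 2.80 FPKM in the fat body IP.

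**Figure D5:**
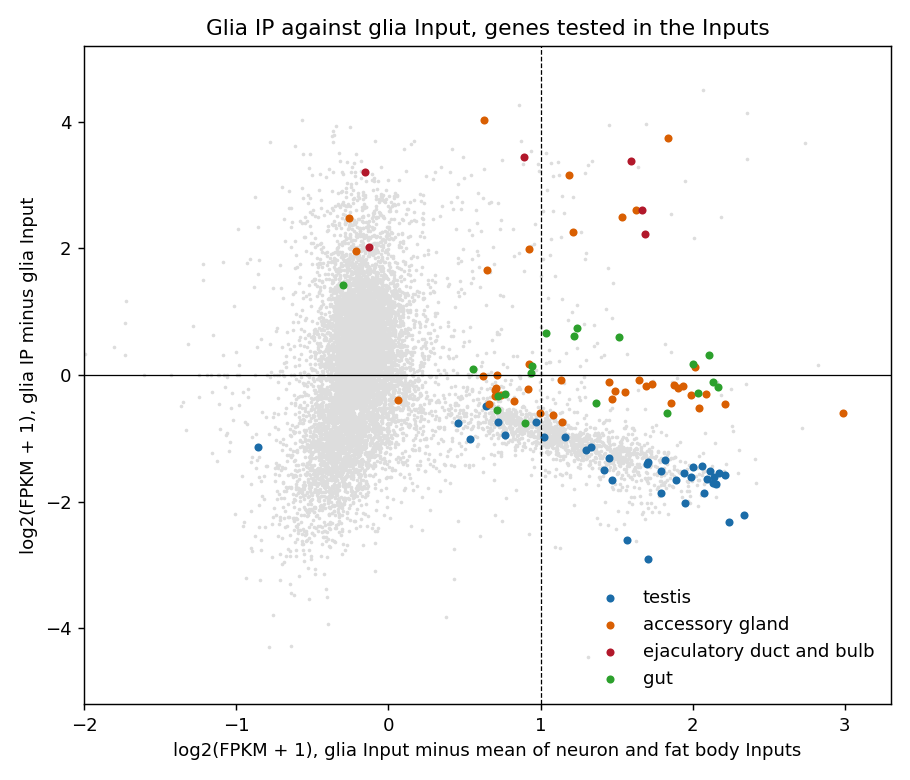
Glia IP minus glia Input (log2(FPKM + 1), vertical axis) against the glia Input minus the mean of the neuron and fat body Inputs (horizontal axis) for the tested genes, with 4 gene lists coloured and the dashed line at 2-fold. Genes beyond the axes, such as CR40469, are not drawn. Right of the line the testis genes lie below 0, most accessory gland genes near 0, and the duct genes with some accessory gland genes above 2.

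Of the 1052 higher genes, 48 were at least 2-fold above the glia Input in the glia IP. Of these 48, 47 were also at least 2-fold above the mean of the other IPs, against 11.3% of all genes. In the authors' deposited table, 34 were above both other IPs at q under 0.05, against 7.14% of all genes. The 48 were chosen by a high glia Input and a high glia IP, so both counts follow largely from the choice. Genes known by number made up 26 of the 48, and 8 were on the accessory gland or duct lists. CG18628 had 1095 FPKM in the glia IP, 9.81 FPKM in the neuron IP and 18.5 FPKM in the fat body IP, beside 130 FPKM in the glia Input, 34.9 in the neuron Input and 31.2 in the fat body Input. CG42782 had 965, 2.05 and 5.04 FPKM in the glia, neuron and fat body IPs and 74.6, 13.2 and 8.11 FPKM in the Inputs of the same flies. The odorant-binding protein genes Obp51a and Obp8a, named for a family that carries small molecules, had 136 and 101 FPKM in the glia IP, 0.945 and 13.2 in the neuron IP and 2.41 and 11.5 in the fat body IP.

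The 47 lower genes had no such common course in the IP. In the glia IP 19 of them (40.4%) were at least 2-fold below the mean of the other IPs, against 15.1% of all genes, and 4 (8.51%) were at least 2-fold above it, against 11.3%.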

How the data were processed

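PolyA RNA of head lysates was sequenced as paired reads of 100 bases, per the labels. Per the submitters' processing notes, the tools were TopHat2 2.0.6, Cufflinks 2.0.2 and Cuffdiff 2.0.2, with genome build BDGP5. The authors deposited 1 table with 6 columns of FPKM, each combined by the authors over both replicates of a group, and 3 columns of q-values for the pairs of IPs. Annotation release, library scaling and the way replicates were combined are not given in the sources used here.

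The members, gene lists and alternatives were chosen with earlier results of these data known. Python 3.11.15, numpy 2.4.6, pandas 2.3.3, scipy 1.17.1 and matplotlib 3.10.9 were used. Genes reaching 1 FPKM in any Input were kept, a pseudocount of 1 was added before log2, and a gene counted from 2-fold upwards. Ratios without the pseudocount used genes with a mean of at least 3 FPKM over the Inputs and none at 0. The fold changes are values with no replicate check, so no p-value was computed. The calculation was checked on simulated data.

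Genes named were elav, repo, to and RpL10Ab, up to 20 highest and 20 lowest differences (20 and 6 met the conditions: at least 5 FPKM in an Input, a name other than a CG or CR number, at least 2-fold apart from both other Inputs), and from each of 38 lists the 2 most abundant genes and 2 others with the largest difference. Other genes, the gene pairs and 6 further lists were chosen after their values were seen.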

Additional observations from a re-analysis of the deposited data

How the results depend on the processing

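The main counts were 1052 genes higher and 47 lower in the glia Input. A pseudocount of 0.1 gave 1506 and 99, a pseudocount of 5 gave 227 and 13, and a minimum of 5 FPKM gave 520 and 34. Median scaling gave 1189 and 28, total scaling 1147 and 34, the neuron Input alone as comparison 1150 and 127, and the fat body Input alone 899 and 48. Leaving out genes listed at 0 gave 1044 and 35. Dropping the minimum of 1 FPKM changed neither count, but with the added 1 it could not, since any gene past 2-fold reaches 1 FPKM in an Input. Higher genes made up 90.1% to 97.7% of those past 2-fold in these settings. The count of higher genes thus depends on the pseudocount and the minimum, and that of lower genes on the pseudocount, the scaling and the Input compared; the cause was not tested. No gene named by the rule or list median turned its direction past the threshold. Over these settings the median of the testis list was 1.34 to 2.02, accessory gland 0.68 to 1.78, duct 0.44 to 1.45, gut 0.41 to 2.00, immune effectors 0.58 to 1.22 and pan-neuronal genes -0.95 to -0.32, while that of the flight muscle list (-0.14 to 0.19) and the fat body list (-0.17 to 0.09) changed sign. No paired analysis was possible because the table holds no values per replicate, and leaving out a replicate could not be run for the same reason. Precision and the lowest level that can be told from 0 are unknown without counts, which bears most on the 815 higher genes under 10 FPKM.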

Other observations

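Of 21 tested heat shock and chaperone genes 6 were at least 2-fold higher in the glia Input, against 9.78% of all genes, and the list median was -0.05. Besides Hsc70-2, Hsp60B, Hsp60C and Hsp60D, which are among the gene pairs above, these were Hsp22 and Hsp67Bb. Hsp22, a small heat shock protein gene of mitochondria, had 23.1 FPKM in the glia Input, 8.58 in the neuron Input and 9.01 in the fat body Input, whereas the abundant chaperone gene Hsp83 had 181, 280 and 188 FPKM in the glia, neuron and fat body Inputs. Lsp2, a storage protein gene on the fat body list, had 896 FPKM in the glia Input, 1038 in the neuron Input and 482 in the fat body Input. w, the eye pigment transporter gene that many fly transgenes also carry as a marker, had 16.7 FPKM in the glia Input, 21.0 in the neuron Input and 5.67 in the fat body Input. Npc2h, a sterol-binding protein gene on the same list as Lsp2, had 78.3, 123 and 140 FPKM in the glia, neuron and fat body Inputs.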
